A study of Mus musculus with 9 samples.

Results

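The baseline transcriptome of Hepa1-6 cells, an established mouse hepatoma line, was described from the 3 control libraries among the 9 libraries of the series. The members are the samples that the labels place in the control group, and all 56748 genes of the tables were examined in them. The study exposed Hepa1-6 cells for 2 days to lefamulin or tiamulin, which are pleuromutilin antibiotics, at 37 µg/mL. With the control there were 3 groups of 3 libraries each, and total RNA was extracted for sequencing. The control cells carried no engineered allele and received no drug: the labels state that nothing was done to them, and the study's methods call them vehicle-treated. Cells of all groups grew in DMEM with fetal bovine serum and penicillin-streptomycin. The drug-treated libraries were not analysed here, so no value below is a treatment effect, and no liver tissue or primary hepatocyte was analysed here. The labels number the control samples but do not say whether they came from separate cultures, so the SD between them may be technical.

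Hepatocytes, the cells from which such tumours arise, secrete most plasma proteins, assemble lipoproteins, turn ammonia into urea, make glucose, and modify drugs and bile acids. A set of transcription factors that includes HNF4A, FOXA2 and C/EBP alpha drives these genes in the adult liver, while the fetal liver also makes alpha-fetoprotein and several growth-related RNAs. Hepatoma lines often keep some of these functions and lack others, and both kinds are given here gene by gene.

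The 3 libraries held 17286444 to 18008105 assigned counts. Levels are given as FPKM, counts scaled by the gene's exon length and by the library's total, which allows genes of different length to be set beside each other. Where 3 values follow each other for a gene, they are those of controls 1, 2 and 3 in this order, and a value with ± is the mean with the SD (n = 3). A gene was called expressed when it had at least 1 FPKM in each of the 3 libraries, and 11261 of 56748 genes met this (19.8%). Among protein-coding genes 9844 of 21970 were expressed (44.8%), and this percentage is the background against which each list of genes below is read. The median of the mean FPKM was 0.373 over all protein-coding genes and 9.64 over the expressed ones. At the lower end 6455 protein-coding genes had no count in any library, and at the upper end 346 had a mean of 100 FPKM or more. A further 352 protein-coding genes reached 1 FPKM in 1 or 2 libraries only and were not called.

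The label was checked against markers of hepatocytes and of other liver cells. Of 16 hepatocyte markers 11 were expressed, among them Alb, Apoa2, Apob, Trf, Fgb, Hnf4a, Foxa2, Cebpa, Krt8 and Krt18. Of 8 endothelial markers none was expressed, and their summed level was 0.304 to 0.355 FPKM, with Tek, Lyve1 and Clec4g at 0 counts. Of 8 blood and Kupffer cell markers none was expressed either, their summed level was 1.16 to 1.74 FPKM, and Adgre1, Clec4f, Cd3e and Hbb-bs had 0 counts. Among 6 stellate cell and fibroblast markers only Dcn, which encodes the matrix proteoglycan decorin, was expressed. Their summed level was 252 to 267 FPKM, and Col3a1 and Pdgfrb were at 0 counts. Of 6 bile duct markers 4 were expressed (Krt7, Sox9, Epcam and Spp1), and of 5 fetal liver markers 1 was (Afp). The libraries thus carried 68.8% of these hepatocyte markers and 66.7% of these bile duct markers, against 44.8% of all protein-coding genes. In the longer lists below, 46.7% of bile duct and progenitor markers and 33.5% of hepatocyte function genes were expressed. Dcn, at 252, 266 and 266 FPKM, stood above Alb, at 199.96, 195 and 226 FPKM, and Serpina1a of the hepatocyte markers had 0 counts.

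The most abundant transcripts belonged to the mitochondrial genome and to the translation machinery. Of the 20 genes with the highest mean FPKM, 5 were mitochondrial, 7 encoded ribosomal proteins and 2 were annotated as pseudogenes. The highest was mt-Co1, which encodes subunit 1 of cytochrome c oxidase, at 7523, 8399.7 and 8121 FPKM. Control 1 was the lowest of the 3 for mt-Co1 and also for mt-Nd1 (4503, 5271 and 4833), mt-Cytb (3182, 3759.9 and 3461), mt-Nd2 (2035, 2451 and 2202) and mt-Nd4 (913, 1078 and 954), in the same order of libraries. The highest nuclear gene was Eef1a1, which encodes the elongation factor that brings aminoacyl-tRNA to the ribosome, at 2696, 2707 and 2692 FPKM. Its mean was 2698 ± 7.77 FPKM. The nuclear gene next in order was Sprr1a, a small proline-rich protein known from the cornified envelope of skin cells, at 2001, 2146 and 2058 FPKM. It stood above every ribosomal protein gene in each library. The translation genes that followed were Rplp0 (1609 ± 67.8 FPKM), Rps3a1 (1507 ± 24.4 FPKM), Rplp1 (1429 ± 123 FPKM), the elongation factor Eef2 (1287 ± 94.98 FPKM), Rpl41 (1197 ± 104 FPKM), Rps2 (1034 ± 13.3 FPKM), Rps15 (947 ± 61.2 FPKM) and Rpl32 (850.1 ± 80.7 FPKM). Tmsb10, which encodes the actin-binding peptide thymosin beta 10, reached 1228 ± 30.9 FPKM. Apoe was the only gene of a liver list in this group.

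**Figure D1:**
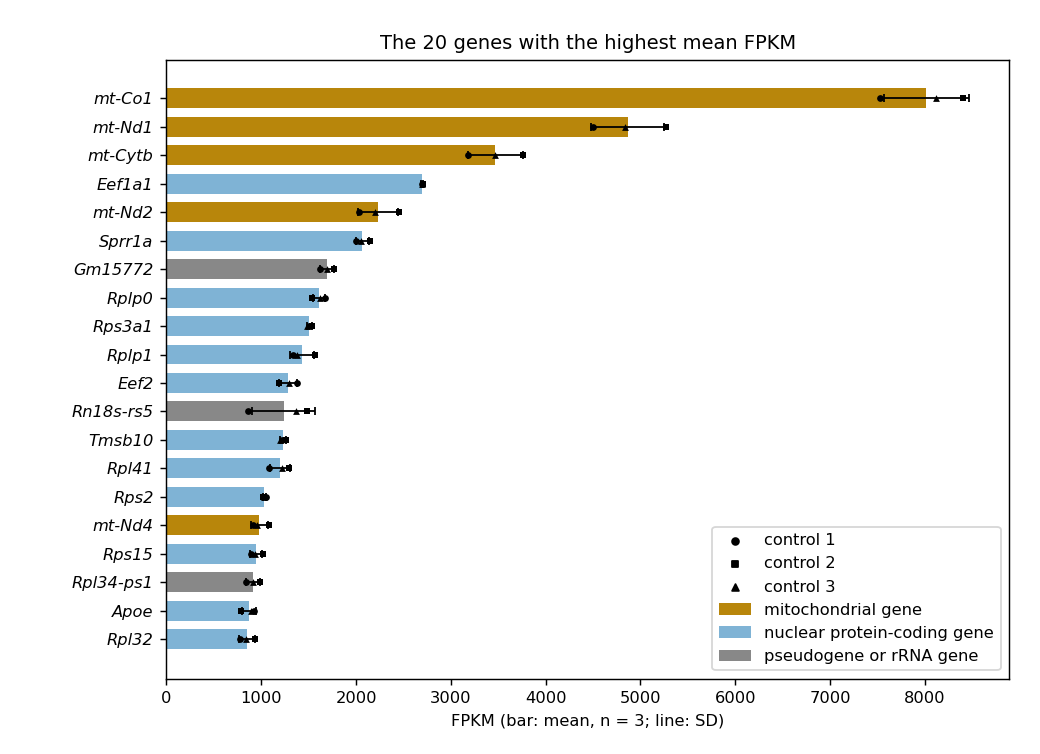
The 20 genes with the highest mean FPKM in control Hepa1-6 cells. Bars show the mean FPKM of the 3 control libraries, lines the SD and markers the single libraries, coloured by kind of gene; mt-Co1 leads at 8015 FPKM, and the bar of Rn18s-rs5 has the widest spread relative to its mean.

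Many neighbours in this order could not be ranked firmly, since for 12 of the 19 pairs of adjacent genes the ranges of the 3 libraries overlapped. The 18S ribosomal RNA repeat Rn18s-rs5 was the least even of the 20, at 859, 1488 and 1365 FPKM, with control 1 well under the others. The share of counts on rRNA genes was 0.1597% to 0.275% of a library, and that of mitochondrial genes was 2.56% to 2.93%. The 100 most abundant genes took 27.1% ± 0.689 (SD, n = 3) of summed FPKM, and the top 1000 took 58.2% ± 0.648. Among the 100 highest protein-coding genes 35 encoded ribosomal proteins. Many ribosomal protein genes have near-identical processed copies elsewhere in the genome, and how reads matching several copies were counted is not given in the sources used here, so the split between gene and copy is uncertain.

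By annotation, nuclear protein-coding genes held 94.5% ± 0.349 (SD, n = 3) of counts and mitochondrial protein-coding genes 2.64% ± 0.180. Long noncoding RNA genes (lncRNA) held 1.32% ± 0.0648 of counts, and pseudogenes 1.10% ± 0.0418. Per length the order of the last 2 groups was the other way: pseudogenes held 6.09% of summed FPKM and lncRNA genes 1.76%. Of the lncRNA genes 503 of 11288 were expressed (4.46%), with a median among them of 2.72 FPKM, against 9.64 for expressed protein-coding genes. The lncRNAs also varied more between libraries, with a median coefficient of variation of 12.7% against 5.45% for expressed protein-coding genes. The highest lncRNA was Gm11216 at 265, 271 and 270.05 FPKM. It was followed by Gm16001 (198 ± 12.9 FPKM), ENSMUSG00000120364 (184 ± 10.9 FPKM), Gm42047 (162 ± 2.24 FPKM) and Ptprtos (161 ± 5.67 FPKM). The first 10 lncRNAs by counts held 47.2% ± 0.460 of all lncRNA counts.

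Processed pseudogenes were led by Gm15772 at 1619, 1768 and 1691 FPKM, which placed it among the 20 highest genes of any kind. Rpl34-ps1 (914 ± 69.5 FPKM), Rpl37rt (773 ± 28.9 FPKM), Gm9794 (736 ± 94.8 FPKM) and Rpl3-ps1 (359 ± 7.50 FPKM) came next. Several of these names mark copies of ribosomal protein genes, for which the uncertainty above holds. Of the mitochondrial RNAs that are not messengers, the tRNA mt-Tp stood at 535 ± 33.97 FPKM, the large rRNA mt-Rnr2 at 495 ± 18.9 FPKM and the small rRNA mt-Rnr1 at 220.04 ± 11.3 FPKM. Mitochondrial rRNA genes held 0.0994% of counts, against 2.64% for mitochondrial protein-coding genes. The study's methods do not say how RNA was selected before sequencing. These levels, like that of Rn18s-rs5, are therefore no measure of rRNA or tRNA amounts in the cells. Genes of small RNAs held 0.0202% of counts, and the highest snoRNA gene was Snord72 at 42.3 ± 16.5 FPKM and the highest miRNA gene ENSMUSG00002076173 at 98.3 ± 28.9 FPKM. These short loci rested on few counts (180 for Snord72 and 295 for the miRNA gene over the 3 libraries), and a count on a miRNA gene in such libraries is not a measure of the mature miRNA.

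Of the 275 distinct genes on the 10 lists of hepatocyte functions, 92 were expressed (33.5%), against 44.8% of all protein-coding genes. Their median of the mean FPKM was 0.113, against 0.373. No count was found in any library for 65 of them (23.6%), against 29.4% of all protein-coding genes. The members were spread widely, since 11 genes (4%) were at 100 FPKM or more, against 1.57% of all protein-coding genes.

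**Figure D2:**
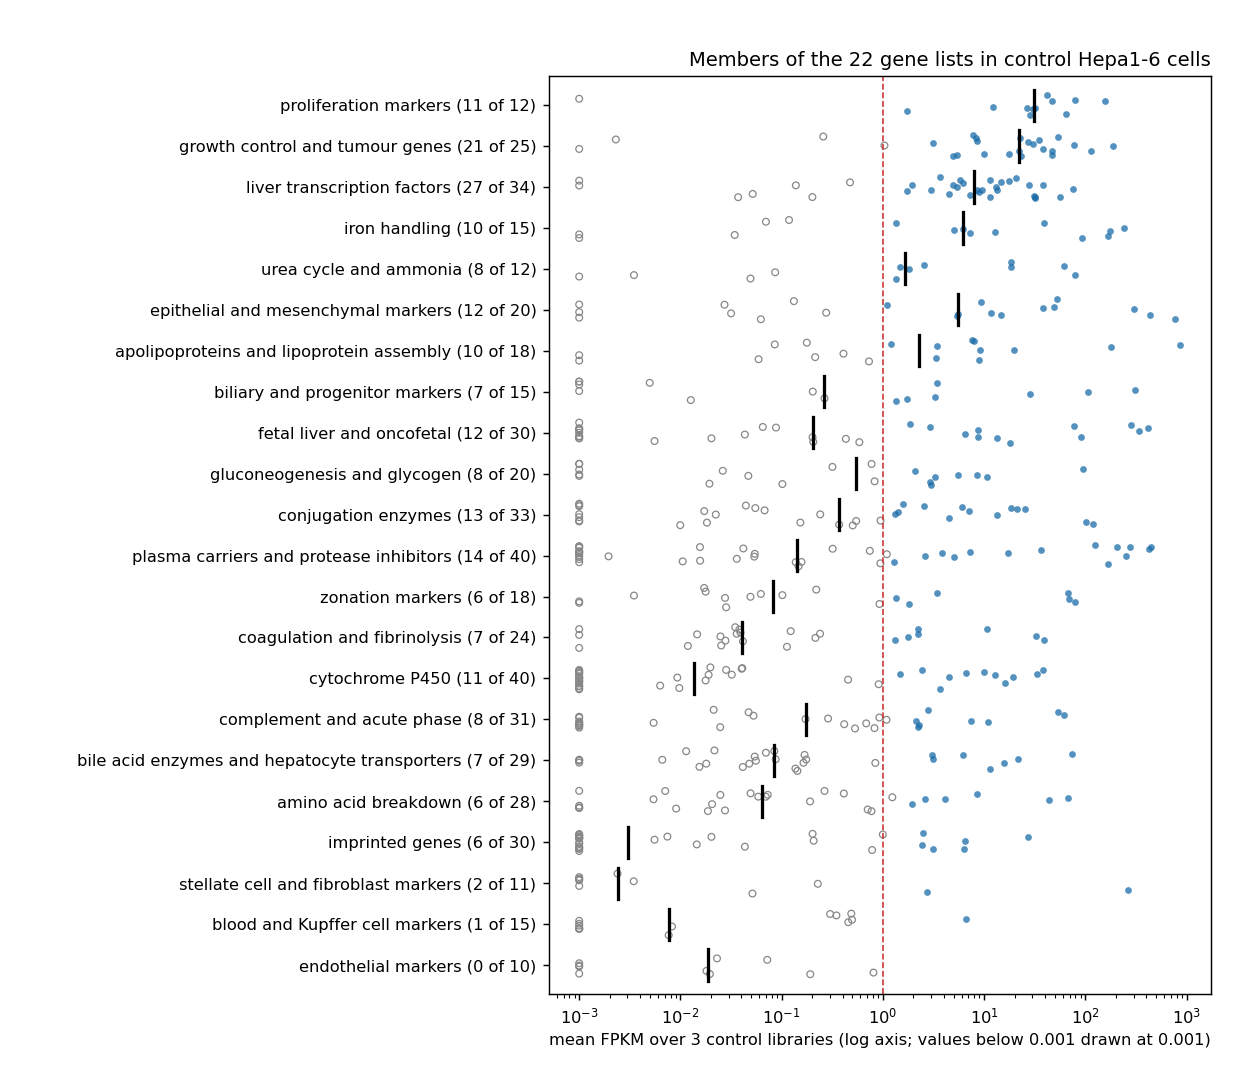
Mean FPKM of each member of the 22 gene lists over the 3 control libraries, on a log axis. Filled points are expressed (at least 1 FPKM in all 3 libraries), open points are not, the short black line is the list's median and the dashed line marks 1 FPKM; lists are ordered by the share expressed, from proliferation markers (11 of 12) to endothelial markers (0 of 10), and values under 0.001 are drawn at 0.001.

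Secreted plasma proteins also ranged from high levels to 0. Of 40 plasma carriers and protease inhibitors 14 were expressed, with a list median of 0.142 FPKM, and 11 had 0 counts in all libraries (27.5%, against 29.4% of all protein-coding genes). The highest was Rbp4, the carrier of retinol in blood, at 435, 451 and 465 FPKM. Igfbp1 and Igfbp4, which bind insulin-like growth factors, stood at 423, 397 and 448 FPKM and 264, 237 and 250.2 FPKM, and Selenop, the plasma carrier of selenium, at 265, 293 and 279.6 FPKM. None of these ranges reached down to that of Trf, the iron carrier transferrin, at 172, 157 and 171 FPKM. Alb, which encodes the main protein of plasma, stood at 199.96, 195 and 226 FPKM, with control 3 the highest. Its mean of 207 ± 16.5 FPKM placed it at rank 157 among protein-coding genes. Lower members were the protease inhibitor component Itih2 (124 ± 5.64 FPKM), the haem carrier Hpx (36.1 ± 1.23 FPKM) and the vitamin D carrier Gc (17.4 ± 1.57 FPKM).

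In contrast, other carriers of the same list were close to absent. Ttr, the carrier of thyroid hormone, had 0, 0 and 1 counts, Ahsg (fetuin A) had 8, 2 and 6 counts and Apoh had 3, 0 and 0 counts. Haptoglobin (Hp), which binds free haemoglobin, remained under the limit at 0.787, 0.614 and 0.83 FPKM. Vtn (vitronectin), Serpina1a, Serpina1c, Serpina1d, Serpina1e, Serpina3k, Serpina6, Itih1, A1bg, Hrg and Igfbp2 had 0 counts, and Ambp had 0, 2 and 2 counts. For Serpina1a, one of the genes of alpha-1-antitrypsin, 0 counts over the 3 libraries allow up to 3 counts, or 0.031 FPKM. This limit covers counting error only, and the near-identical copies of the Serpina1 family add the uncertainty of shared reads.

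Of 24 genes of coagulation and fibrinolysis 7 were expressed, with a list median of 0.0403 FPKM and none at 100 FPKM or more. Pros1, which encodes the anticoagulant cofactor protein S, stood at 37.2, 40.6 and 39.6 FPKM, and Fgb, the beta chain of fibrinogen, at 30.6, 32.6 and 33.5 FPKM. The ranges of the 2 genes did not overlap. The vitamin K-dependent carboxylase Ggcx was at 10.6 ± 0.907 FPKM, Serpina10 at 2.21 ± 0.197 FPKM and the anticoagulant protease precursor Proc at 2.20 ± 0.302 FPKM. Prothrombin (F2) had 2, 5 and 3 counts, factors VII and X (F7 and F10) had 0 counts, F5 stood at 0.24 ± 0.053 FPKM and F8 at 0.123 ± 0.0203 FPKM. Fga and Fgg, the chains that assemble with Fgb into fibrinogen, had 4 counts each over the 3 libraries.

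Of 31 complement and acute phase genes 8 were expressed, with a list median of 0.172 FPKM. C1s1, a protease subunit of the first complement component, stood at 59.97, 64.1 and 60.4 FPKM, and C3, the central component of the cascade, at 54.8, 50.2 and 57.2 FPKM. C1ra followed at 10.9 ± 0.274 FPKM, the inactivating protease Cfi at 7.49 ± 0.41 FPKM and Fgl1 at 2.77 ± 0.245 FPKM. Of the components of the membrane attack complex, C8a, C8b and C9 had 0 counts and C6 had 0, 1 and 0 counts, while C8g stood at 0.885, 0.388 and 0.781 FPKM and C5 (Hc in the tables) at 0.936, 1.11 and 1.21 FPKM. Of the acute phase genes, the serum amyloid genes Saa1, Saa2 and Saa4 and the C-reactive protein gene Crp had 0 counts and Saa3 had 0, 0 and 3 counts, whereas Lbp, which binds bacterial lipopolysaccharide, was expressed at 2.22, 1.72 and 2.39 FPKM. C4b (0.0472 FPKM), C4bp (0.531 FPKM), Masp2 (0.172 FPKM) and Mbl1 (0 counts) were not expressed. C5 and Cfb lay at the limit, reaching 1 FPKM in some libraries only.

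Lipoprotein genes were led by a single member. Of 18 genes 10 were expressed (list median 2.29 FPKM), and Apoe, a ligand for receptors that clear lipoprotein remnants, stood at 929, 790.1 and 897 FPKM. Apoe alone made up 78.3% of the summed mean FPKM of the list. Of the others, the HDL receptor Scarb1 stood at 9.18 ± 0.0941 FPKM and Apob, the structural protein of very-low-density lipoproteins, at 8.92 ± 0.491 FPKM. Mttp, which loads lipid onto apolipoprotein B, was at 3.39 ± 0.222 FPKM. Apoa1, the main protein of high-density lipoproteins, had 3, 5 and 6 counts, and Apoa4 and Apoc3 had 0 counts. Apoa5 (0.0592 FPKM), Apom (0.408 FPKM) and Lipc (0.177 FPKM) were not expressed.

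Several of these genes lie side by side in the genome, and neighbours differed greatly. Alb, Afp and Afm are members of the albumin gene family that lie in a row in the deposited annotation, with 14.1 kb between Alb and Afp and 10.02 kb between Afp and Afm. Afp, which encodes the alpha-fetoprotein of fetal plasma, stood at 276, 275 and 302 FPKM, above Alb in every library. Afm, which encodes afamin, had 9, 11 and 5 counts, and the mean of Afp was 1809-fold that of Afm. Gc, another member of the family on the same chromosome, stood at 15.5, 18.1 and 18.4 FPKM. In the fibrinogen locus Fgg, Fga and Fgb are next to each other with gaps of 11.03 kb and 6.51 kb, and Fgb was the only one expressed. Its mean was 1296-fold that of Fga, a ratio that rests on 4 counts of Fga.

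The promoters of these 6 genes are printed so that neighbours with high and near-zero levels can be set beside each other. Each runs from 250 bases before to 50 bases after the start listed by RefSeq on GRCm38.p6, written 5′ to 3′ on the gene's strand. Capitals mark exact matches on either strand to 4 motifs. The TATA box was searched as TATAAA, and the CCAAT box by the letters of its name. The core of C/EBP sites was searched as TTGCNNAA, where N is any base, and that of HNF4 sites as CAAAGTCCA. Alb lies at chr5:90460620-90460919 on the plus strand, Afp at chr5:90490464-90490763 on the plus strand and Afm at chr5:90518699-90518998 on the plus strand. Fgb lies at chr3:83049814-83050113 on the minus strand, Fga at chr3:83025903-83026202 on the plus strand and Fgg at chr3:83007474-83007773 on the plus strand.
Alb: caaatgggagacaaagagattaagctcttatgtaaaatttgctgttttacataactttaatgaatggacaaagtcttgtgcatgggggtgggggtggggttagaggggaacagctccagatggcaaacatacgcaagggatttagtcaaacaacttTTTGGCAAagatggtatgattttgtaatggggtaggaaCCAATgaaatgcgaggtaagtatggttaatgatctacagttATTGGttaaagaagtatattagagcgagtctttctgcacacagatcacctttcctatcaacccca
Afp: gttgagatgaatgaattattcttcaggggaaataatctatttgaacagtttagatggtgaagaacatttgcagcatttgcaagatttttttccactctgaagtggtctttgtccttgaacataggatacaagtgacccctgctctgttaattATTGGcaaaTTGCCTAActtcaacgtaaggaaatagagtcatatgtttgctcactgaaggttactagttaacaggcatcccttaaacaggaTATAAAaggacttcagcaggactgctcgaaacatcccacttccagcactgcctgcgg
Afm: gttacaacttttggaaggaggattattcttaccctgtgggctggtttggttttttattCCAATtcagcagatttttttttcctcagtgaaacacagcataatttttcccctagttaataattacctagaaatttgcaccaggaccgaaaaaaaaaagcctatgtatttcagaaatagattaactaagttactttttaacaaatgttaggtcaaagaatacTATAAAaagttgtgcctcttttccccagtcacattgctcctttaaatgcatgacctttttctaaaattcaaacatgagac
Fgb: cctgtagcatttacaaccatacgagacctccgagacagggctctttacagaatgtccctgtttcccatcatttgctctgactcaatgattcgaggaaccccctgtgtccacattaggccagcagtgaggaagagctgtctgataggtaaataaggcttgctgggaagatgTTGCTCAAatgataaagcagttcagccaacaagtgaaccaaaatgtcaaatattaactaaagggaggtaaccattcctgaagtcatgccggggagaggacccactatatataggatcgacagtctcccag
Fga: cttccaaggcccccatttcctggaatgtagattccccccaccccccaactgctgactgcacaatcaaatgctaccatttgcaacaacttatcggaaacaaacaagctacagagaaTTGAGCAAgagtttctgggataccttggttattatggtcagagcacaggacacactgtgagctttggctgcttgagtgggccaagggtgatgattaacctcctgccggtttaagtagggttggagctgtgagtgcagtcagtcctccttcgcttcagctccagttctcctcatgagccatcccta
Fgg: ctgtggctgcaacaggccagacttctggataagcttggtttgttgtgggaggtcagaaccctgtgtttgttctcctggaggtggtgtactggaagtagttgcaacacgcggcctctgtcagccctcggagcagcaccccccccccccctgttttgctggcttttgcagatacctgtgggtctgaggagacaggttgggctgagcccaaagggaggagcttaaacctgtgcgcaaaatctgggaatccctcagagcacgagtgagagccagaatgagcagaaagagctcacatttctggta

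Among the 14059 protein-coding genes with 1 listed start, 14.03% of promoters held TATAAA, 39.6% CCAAT, 10.1% the C/EBP core and 0.462% the HNF4 core. Alb held CCAAT 56 and 15 bases and a C/EBP core 94 bases before the start, and no exact match to the HNF4 core. Afp held CCAAT 98 bases, a C/EBP core 89 bases and TATAAA 7 bases before the start. Afm, at 0.157 FPKM, held TATAAA 30 bases before the start and CCAAT 192 bases before it. Fgb held a C/EBP core 80 bases before the start, Fga held one 135 bases before it, and the Fgg window held none of the 4 motifs. The C/EBP core was thus found in the windows of the expressed Alb, Afp and Fgb and of Fga, and not in those of Afm and Fgg. A match describes the letters only and is no measure of factor binding.

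**Figure D3:**
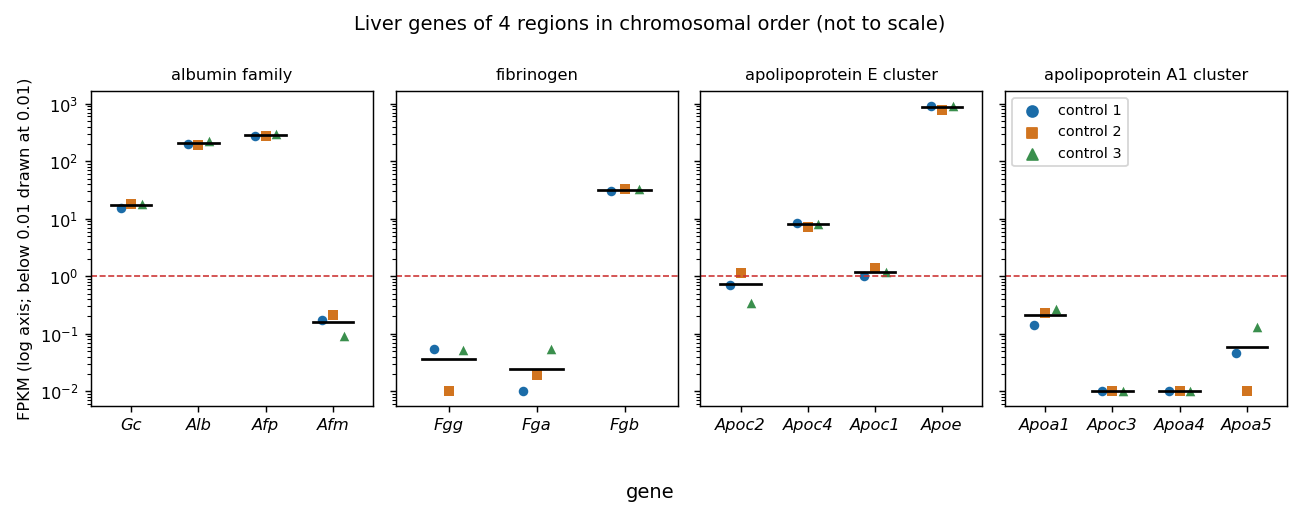
FPKM of the genes of 4 liver gene regions in each control library, on a log axis, with the genes of a panel in chromosomal order and not to scale. Markers are the single libraries, black lines the means and the dashed line 1 FPKM; Afp, Fgb and Apoe stand far above Afm, Fga and Apoc1 beside them.

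The apolipoprotein clusters differed from each other. Apoe stood 3.45 kb from Apoc1, which had only 1.004, 1.40 and 1.19 FPKM, so that the mean of Apoe was 727-fold that of Apoc1. Apoc4 in the same cluster was at 8.54, 7.17 and 8.21 FPKM and Apoc2 at 0.707, 1.14 and 0.341 FPKM, and Apoc2 reached 1 FPKM in control 2 only. In the cluster of Apoa1, Apoc3, Apoa4 and Apoa5 no gene reached 0.3 FPKM in any library. Of the serpin cluster that holds the genes of alpha-1-antitrypsin, Serpina10 alone was expressed: Serpina1b had 0, 2 and 5 counts, and Serpina3n and Serpina3m had 0 counts. The neighbours Itih1, Itih3 and Itih4 had at most 3 counts in all, while Itih2, which lies on another chromosome, was expressed.

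Metabolic functions of the liver were next compared by pathway. Of 12 urea cycle and ammonia genes 8 were expressed, with a list median of 1.65 FPKM. Cps1, which commits ammonia to the cycle, had 0, 1 and 0 counts. Otc, the enzyme of the next step, had 0 counts, which allow up to 0.013 FPKM. The middle enzymes of the cycle were present, with Asl at 18.4, 17.1 and 19.5 FPKM and Ass1 at 2.17, 1.90 and 1.36 FPKM. The 2 genes did not overlap, and Asl was higher in each library. Glul, which fixes ammonia into glutamine, was the highest member at 79.9, 77.1 and 79.8 FPKM, and Glud1, which links ammonia and glutamate, stood at 62.6, 60.5 and 60.4 FPKM. The ornithine and aspartate carriers Slc25a15 (2.53 ± 0.311 FPKM) and Slc25a13 (18.7 ± 0.767 FPKM) were also expressed, while the ammonia transporter gene Rhbg had 5 counts.

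Of 20 genes of gluconeogenesis and glycogen 8 were expressed (list median 0.546 FPKM). Pck1, G6pc1 (G6pc in the tables), Fbp1 and Gys2 had 0 counts in every library. Of these Pck1, Fbp1 and G6pc1 encode enzymes that bypass irreversible steps of glycolysis in the liver, while pyruvate carboxylase (Pcx), which acts before Pck1, stood at 2.90 ± 0.264 FPKM. For Pck1 0 counts allow up to 0.017 FPKM. Ugp2, which makes UDP-glucose, was the highest at 90.5, 93.7 and 99.3 FPKM. The mitochondrial enzyme Pck2 stood at 10.6 ± 0.677 FPKM, the glycogen-targeting subunit Ppp1r3c at 8.61 ± 1.02 FPKM and the glucose 6-phosphate transporter Slc37a4 at 5.46 ± 0.483 FPKM. Pygl (0.0194 FPKM), Gbe1 (0.773 FPKM) and Gckr (0.0262 FPKM) were not expressed. Ugp2 made up 71.3% of the summed mean FPKM of this list.

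Of 28 genes of amino acid breakdown 6 were expressed, with a list median of 0.0642 FPKM. Oat (ornithine aminotransferase) stood at 68.97, 65.3 and 67.6 FPKM and Got1, which moves amino groups between aspartate and glutamate, at 46.3, 43.2 and 42.5 FPKM. Cth, which makes cysteine, followed at 8.48 ± 0.503 FPKM, Fah at 4.10 ± 0.295 FPKM and Gstz1 at 2.62 ± 0.236 FPKM. Fah and Gstz1 act late in tyrosine breakdown, while the enzymes before them were not expressed: Tat stood at 0.412 ± 0.103 FPKM, Hpd had 0, 1 and 0 counts and Hgd had 0, 0 and 1 counts. For tryptophan and kynurenine, Tdo2 had 2, 3 and 0 counts, Kmo 5, 10 and 3 counts and Kynu 0, 5 and 1 counts, and Haao had 2, 3 and 0 counts.

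Of 40 genes of cytochrome P450 enzymes and their reductase 11 were expressed (list median 0.0138 FPKM), and 17 had 0 counts (42.5%, against 29.4% of protein-coding genes). The highest was Cyp51, an enzyme of cholesterol synthesis, at 36.4, 39.4 and 39.3 FPKM. It was followed by Por, the reductase that serves these enzymes, at 37.8, 31.5 and 31.5 FPKM, by Cyp20a1 (19.2 ± 0.584 FPKM), by Cyp2s1 (16.03 ± 1.29 FPKM) and by Cyp1a1 (12.8 ± 1.04 FPKM), which is induced through the aryl hydrocarbon receptor. Of other liver P450 genes, Cyp3a13 was expressed at 5.77, 6.9998 and 7.12 FPKM and Cyp2d22 stood at 0.75, 1.10 and 0.881 FPKM. Cyp3a11, Cyp2b10 and Cyp4a14 had 0 counts, Cyp1a2 had 1, 1 and 1 counts, Cyp2c29 had 0, 1 and 0 counts and Cyp2e1 had 2, 0 and 0 counts. Cyp1b1 had 3, 3 and 0 counts, Cyp2a5 0, 1 and 0 counts, and Cyp2a4, Cyp2a12 and Cyp2b9 0 counts. Cyp7a1, the rate-limiting enzyme of bile acid synthesis, had 0, 5 and 4 counts, whereas Cyp27a1 and Cyp7b1 of the alternative route stood at 9.94 ± 1.06 FPKM and 3.71 ± 0.376 FPKM.

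Of 33 conjugation enzymes 13 were expressed, with a list median of 0.370 FPKM. Gstp1, a glutathione transferase, stood at 125, 119 and 117 FPKM, and Aldh1a1, which makes retinoic acid, at 103, 100.1 and 104 FPKM. Gstm1 (25.1 ± 1.60 FPKM) and the epoxide hydrolase Ephx1 (21.2 ± 0.879 FPKM) came next. Gstp2 lies beside Gstp1 and resembles it closely, and it stood at 0.545 ± 0.0679 FPKM. Ugt1a1, which conjugates bilirubin, and Ugt2a3, Sult1d1 and Sult2a8 had 0 counts. Ugt1a6a had 1, 4 and 0 counts, Ugt2b1 1, 3 and 2 counts, Ugt2b5 0, 0 and 1 counts and Sult1a1 7, 5 and 0 counts. Nqo1, a quinone reductase, crossed the limit between libraries at 1.15, 1.27 and 0.429 FPKM.

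For bile acids and hepatocyte transport 7 of 29 genes were expressed, with a list median of 0.0847 FPKM. Abcc2, an exporter of conjugates into bile, led at 74.5, 73.5 and 75.7 FPKM. Next were Amacr (21.8 ± 0.199 FPKM), the basolateral exporter Abcc3 (15.8 ± 0.394 FPKM), the receptor Fgfr4 (11.3 ± 1.34 FPKM) and the iron exporter Slc40a1 (6.18 ± 0.0891 FPKM). The bile salt pump Abcb11 had 4, 8 and 3 counts and the bile acid uptake carrier Slc10a1 3, 10 and 6 counts, while Slc27a5 and Abcg5 had 0 counts. The subunits of the asialoglycoprotein receptor were unequal, with Asgr2 at 2.78, 2.69 and 3.99 FPKM and Asgr1 at 0.108, 0.146 and 0 FPKM. Hsd3b7 (0.0542 FPKM), Akr1d1 (0.00662 FPKM), Acox2 (0.0413 FPKM), Baat (0.137 FPKM), Abcb4 (0.175 FPKM) and Abcc6 (0.143 FPKM) were under the limit.

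Of 34 liver transcription factors 27 were expressed, with a list median of 7.92 FPKM, against the 44.8% of protein-coding genes and their median of 0.373. Hnf4a, which encodes a main regulator of hepatocyte genes, was the highest at 76.6, 75.8 and 73.3 FPKM. Cebpb stood at 71.9, 35.7 and 59.4 FPKM, where control 2 was far under the others, so its mean of 55.7 ± 18.4 FPKM is less firm than that of Hnf4a. Xbp1 of the secretory pathway (37.9 ± 1.78 FPKM), the aryl hydrocarbon receptor Ahr (32.2 ± 0.974 FPKM) and the glucocorticoid receptor Nr3c1 (31.8 ± 2.05 FPKM) followed. Hhex, which acts in early liver formation, was at 31.4 ± 1.23 FPKM, Foxa2 at 27.6 ± 2.09 FPKM, Foxa3 at 20.5 ± 2.90 FPKM and Cebpa at 13.4 ± 2.35 FPKM. The 7 members under the limit in all libraries were Hnf4g, Gata6, Nr1i2, Nr1i3, Nr0b2, Ppara and Creb3l3. Of these, Nr1i2 and Nr1i3, the receptors that sense foreign compounds, had 0, 3 and 2 counts and 5, 4 and 3 counts, and Ppara, which controls fatty acid oxidation, stood at 0.195, 0.0907 and 0.318 FPKM. Nr0b2, a repressor in bile acid feedback, and Gata6 had 0 counts.

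Across all 1525 genes with a transcription factor family in the tables, 728 were expressed (47.7%). The 10 highest were Ybx1 (365 ± 7.99 FPKM), Hmga1 (339 ± 42.04 FPKM), Ybx3 (219.7 ± 11.9 FPKM), Atf4 (185 ± 5.17 FPKM), Id1 (137 ± 10.6 FPKM), Myc (115 ± 10.3 FPKM), Ssrp1 (109 ± 3.10 FPKM), Sox4 (107 ± 7.46 FPKM), Zfp36l1 (100.4 ± 2.23 FPKM) and Junb (100.4 ± 17.6 FPKM). They comprise cold-shock and chromatin proteins as well as Atf4, which acts in the response to amino acid shortage, and Myc, which drives growth. Hmga1 has a close copy, Hmga1b, at 59.8 ± 6.38 FPKM, and the share of reads between them is uncertain. Families differed in how many members were expressed: 38 of 53 bZIP genes and 323 of 609 C2H2 zinc finger genes were, against 21 of 225 homeobox genes and 2 of 17 T-box genes. Hhex was the highest homeobox gene.

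Many metabolic enzymes, and some carriers, factors and adhesion proteins, exist in a form typical of the adult liver and in another form. Of 23 such pairs compared within the same libraries, 17 are described here. Over all 23, the liver form was lower than the other form in all 3 libraries for 14 pairs and higher in all 3 for 8, and it was under 1 FPKM in 10. Among the 17 the counts were 9 lower, 7 higher and 6 under 1 FPKM. For phosphoenolpyruvate carboxykinase, Pck1 had 0 counts while Pck2 stood at 11.1, 9.85 and 10.9 FPKM. Counting Pck1 at the limit of 3 counts over the 3 libraries, Pck2 was at least 639-fold higher, and the same comparison gave at least 462-fold for Gys1, at 10.4, 9.10 and 10.2 FPKM, over Gys2.

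Glycolytic pairs were split. Pkm stood at 396, 399 and 398 FPKM and Pklr at 13.96, 13.5 and 13.4 FPKM (log2 ratio of liver to other form -4.87 ± 0.03, SD, n = 3), so the liver pyruvate kinase was expressed although far lower. The glucose carrier Slc2a1 stood at 42.9, 41.1 and 40.4 FPKM, and the liver carrier Slc2a2 had 4, 10 and 0 counts (log2 ratio -9.79, and -11.03 without control 2). Glycogen phosphorylase likewise was Pygb at 18.5 ± 1.34 FPKM and not Pygl (log2 ratio -9.90, on 7 counts of Pygl, and -10.62 without control 2). Phosphofructokinase went the other way, as Pfkl stood at 36.6, 32.9 and 35.9 FPKM and Pfkp at 3.50, 3.42 and 3.29 FPKM (log2 ratio 3.37 ± 0.09). Enolase also did, with Eno1 at 187 ± 11.2 FPKM and the muscle form Eno3 at 25.8 ± 2.01 FPKM.

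For methionine adenosyltransferase, Mat2a stood at 89.9, 99.7 and 93.6 FPKM and the adult liver form Mat1a had 1, 5 and 3 counts (log2 ratio -10.90). Lipid enzymes were split: Cpt1a exceeded the muscle form Cpt1b with 7.17 ± 0.438 FPKM against 0.287 ± 0.0336 FPKM, and Acaca exceeded Acacb with 5.81 ± 0.162 FPKM against 0.17 ± 0.0236 FPKM. Stearoyl-CoA desaturase leaned to Scd2, at 418, 412 and 428 FPKM, over Scd1, at 90.99, 92.7 and 95.3 FPKM (log2 ratio -2.17 ± 0.02).

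The remaining pairs concerned respiration, factors and adhesion. Cox6a1 stood at 249 ± 14.2 FPKM while the muscle form Cox6a2 had 1 count in all, and Cox7a2 stood at 71.5 ± 4.12 FPKM against 0.813 ± 0.33 FPKM for Cox7a1. Hnf4a exceeded Hnf4g (log2 ratio 9.09). Pfkfb1 and Pfkfb3 could not be ordered, at 2.45, 3.49 and 2.86 FPKM and 2.79, 2.53 and 3.05 FPKM, since control 2 went against the other libraries. For the classical cadherins, E-cadherin (Cdh1) had 3, 7 and 5 counts and N-cadherin (Cdh2) stood at 14.7, 14.98 and 14.8 FPKM (log2 ratio -7.89). Hepatocytes in the liver carry both cadherins, so taking Cdh1 as the liver form is only a convention of the pairing. This pair is counted among the 9 with a lower liver form and the 6 under 1 FPKM.

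**Figure D4:**
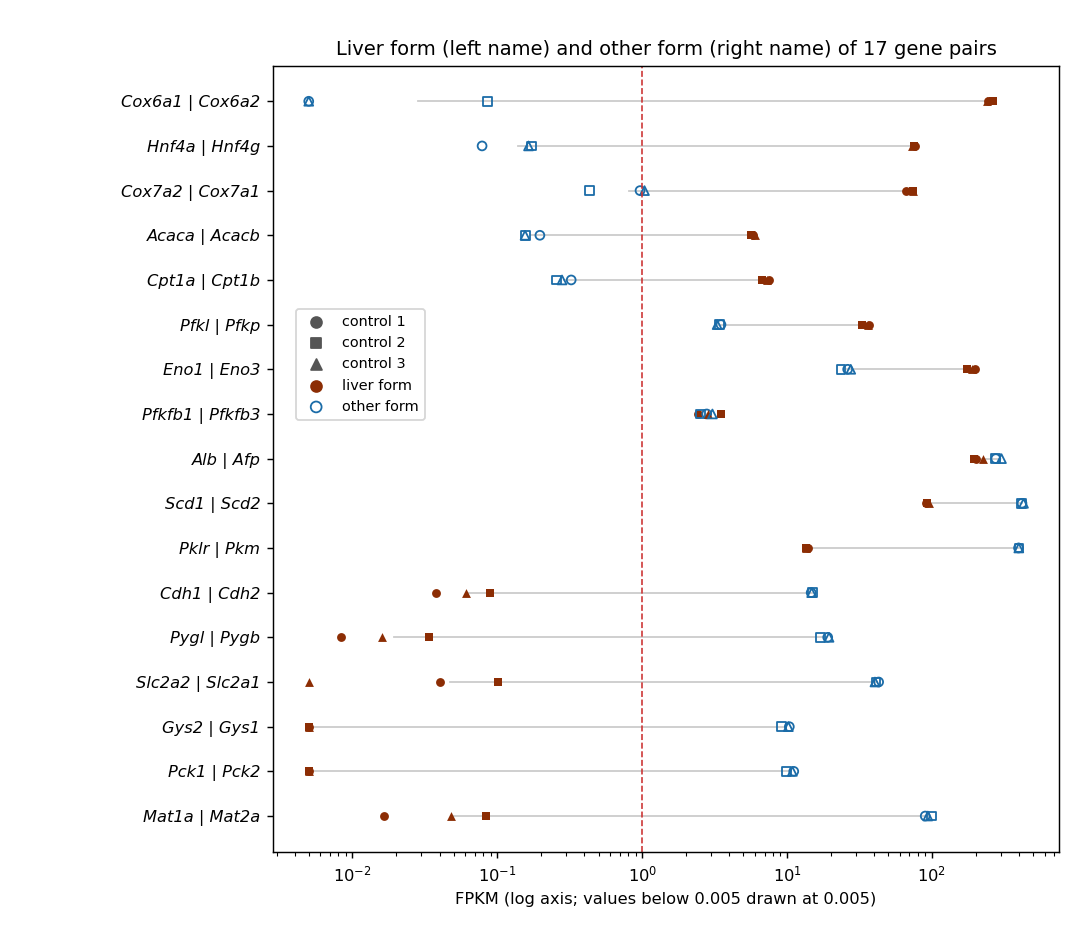
FPKM of the liver form (filled) and the other form (open) of 17 gene pairs in each of the 3 control libraries, on a log axis with the dashed line at 1 FPKM. The pairs are ordered by the ratio of their means, and 9 of them have the liver form to the left of the other form in every library, with Pck1 and Gys2 at 0 counts.

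Fetal and oncofetal genes, which are active in fetal liver or in liver tumours, were also split. Of 30 genes 12 were expressed, with a list median of 0.204 FPKM. Scd2 and Hmga1 led the list, and Hmga1 stood at 384, 300.3 and 333 FPKM. Afp came next, and the log2 ratio of Alb to Afp was -0.46 ± 0.04 (SD, n = 3), with no overlap between the 2 genes. Cd24a, a surface protein of progenitor cells, stood at 84.7, 93.5 and 92.2 FPKM, Tff3 at 68.2, 81.002 and 85.4 FPKM and the RNA-binding proteins Igf2bp1, Igf2bp2 and Igf2bp3 at 18.1, 13.3 and 8.68 FPKM. In contrast, H19 had 3, 1 and 2 counts and Igf2 0, 6 and 0 counts, with the latter all in control 2. Gpc3, a surface proteoglycan used as a tumour marker in humans, stood at 0.449, 0.452 and 0.392 FPKM. Dlk1, Lin28a, Sall4, Peg3 and Cdkn1c had 0 counts, Lin28b stood at 0.088 ± 0.0063 FPKM and Mest at 0.202 ± 0.0382 FPKM.

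Imprinted genes, which in some or all tissues are transcribed from 1 parental copy, include H19 and Igf2. Of 30 listed, 6 were expressed (list median 0.00306 FPKM) and 14 had 0 counts (46.7%). The list holds protein-coding and noncoding genes. Of all protein-coding genes 44.8% were expressed and 29.4% had 0 counts, and of all lncRNA genes 4.46% and 59.0%. Impact stood at 26.1, 27.6 and 28.1 FPKM, Ube3a at 6.45 ± 0.387 FPKM, Gnas at 6.34 ± 0.254 FPKM, Nnat at 3.10 ± 0.72 FPKM and Slc38a4 at 2.49 ± 0.242 FPKM. In the Dlk1 and Meg3 cluster, Dlk1, Meg3, Rtl1 and Mirg had 0 counts and Rian had 1 count over the 3 libraries. In the H19 and Igf2 cluster no gene passed 6 counts, and Ins2 had 0. Igf2r, which clears IGF2 from the cell surface, lay at the limit with 0.963, 0.99 and 1.04 FPKM, beside the lncRNA Airn on the other strand at 2.13, 2.78 and 2.37 FPKM, and whether counting used the strand is not given in the sources used here. The tables hold no alleles, so the parental origin of these transcripts was not measured.

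Bile duct and progenitor markers were expressed for 7 of 15 members (list median 0.265 FPKM), or 46.7%, near the 44.8% of all protein-coding genes. Spp1, which encodes osteopontin, stood at 298, 309 and 313 FPKM and made up 67.7% of the list's summed mean. Sox4 and Sox9, factors of the bile duct lineage, stood at 115, 101 and 106 FPKM and 32.4, 24.9 and 28.8 FPKM. Lgr5 (3.45 ± 0.24 FPKM) and Epcam (3.24 ± 0.112 FPKM) were low but even between libraries. The duct keratins were unequal, as Krt7 stood at 1.29, 1.31 and 1.46 FPKM and Krt19 had 0 counts, and Krt23 and Aqp1 had none either. Prom1 stood at 0.265 ± 0.0758 FPKM, Muc1 at 0.203 ± 0.0541 FPKM and Cftr had 0, 2 and 0 counts.

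Liver lobules are zoned, and genes near the central vein depend on Wnt signalling. The median of the mean FPKM was 0.926 over 9 pericentral and 0.0276 over 9 periportal markers, against 0.373 over all protein-coding genes. Of the pericentral markers 4 were expressed, a share near the 44.8% of all protein-coding genes, and of the periportal markers 2 were. Glul, Axin2 (a direct Wnt target, at 71.3, 64.6 and 69.1 FPKM), Oat and Lgr5 were the pericentral ones. Ass1 and Gls2, both under 3 FPKM, were the periportal ones. Other pericentral genes were near 0, since Cyp2e1, Cyp1a2 and Rhbg had at most 5 counts, and Gulo stood at 0.22 ± 0.118 FPKM. Slc1a2 reached 1 FPKM in some libraries only, and of the periportal genes Hal had 8 counts, Sds 9 and Cyp2f2 and Pck1 none.

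The epithelial and mesenchymal list had 12 of 20 members expressed (list median 5.51 FPKM). Krt18 and Krt8, the keratin pair of hepatocytes, stood at 808, 726 and 755 FPKM and 321, 288 and 303 FPKM. The matrix glycoprotein Fn1, which hepatocytes secrete into plasma, stood at 447, 415 and 435 FPKM, Sparc at 52.7 ± 1.59 FPKM and the junction protein Tjp1 at 49.5 ± 1.25 FPKM. Of the mesenchymal members, Vim stood at 11.8 ± 0.526 FPKM, Zeb1 at 5.45 ± 0.25 FPKM and Snai1 at 9.27 ± 0.667 FPKM, while Snai2 and Twist1 had 0 counts. Among the epithelial members that were not expressed, Ocln had 0, 5 and 1 counts, Esrp1 had 0 counts and Grhl2 stood at 0.276 ± 0.00478 FPKM. S100a4 had 1 count and Tagln 14.

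Genes of cell division were expressed almost throughout, with 11 of 12 proliferation markers and a list median of 31.3 FPKM. Ccnd1 (cyclin D1) stood at 158, 148 and 159 FPKM and Ccnd2 had 0 counts, which allow up to 0.0061 FPKM. Top2a (78.8 ± 2.72 FPKM), Pcna (64.5 ± 3.59 FPKM), Mki67 (46.4 ± 0.982 FPKM) and Cdk1 (41.5 ± 0.203 FPKM) varied little between libraries. Of 25 growth control and tumour genes 21 were expressed (list median 22.3 FPKM). Ctnnb1, which encodes beta-catenin, stood at 189, 183 and 187 FPKM, Myc at 126, 105 and 113 FPKM and Trp53 at 82.2, 74.6 and 75.8 FPKM. Cdkn1a, a target of p53 that halts the cell cycle, was at 53.96 ± 1.73 FPKM and Nfe2l2 at 47.3 ± 0.715 FPKM. The members under the limit were Mycn (0.258 ± 0.0978 FPKM), Fgf15 (0 counts) and Igf1r, the receptor of insulin-like growth factor 1, with 0, 2 and 0 counts, and Erbb3 lay at the limit with a mean of 1.04 FPKM. Sequence changes in these genes cannot be read from counts.

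For iron, 10 of 15 genes were expressed (list median 6.18 FPKM). The ferritin chains Ftl1 and Fth1, which store iron, stood at 257, 229 and 244 FPKM and 175, 182 and 175 FPKM. Transferrin (Trf) and its receptor Tfrc (93.4 ± 3.20 FPKM) were expressed together with the haem-degrading enzyme Hmox1 (39.01 ± 2.23 FPKM). The hormone gene Hamp (hepcidin) and its regulator Hjv had 0 counts, Tfr2 had 6, 4 and 6 counts, Tmprss6 11, 2 and 8 counts and Bmp6 7, 0 and 0 counts. The iron exporter Slc40a1, on which hepcidin acts, was expressed at 6.08, 6.20 and 6.25 FPKM.

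Longer lists of markers of other liver cells were read in the same way. Of 10 endothelial genes none was expressed, and their summed level was 0.855 to 1.31 FPKM, of which Oit3 (0.808 ± 0.232 FPKM) made up 71.3%. The summed level of 15 blood and Kupffer cell markers was 8.56 to 8.79 FPKM, of which Cd68, a lysosomal protein at 6.68, 7.05 and 6.09 FPKM, was the only one expressed, at 75.8% of their summed mean. Csf1r stood at 0.456 ± 0.0883 FPKM, Cd79a at 0.496 ± 0.0878 FPKM and Hba-a1 at 0.487 ± 0.24 FPKM. Of 11 stellate cell and fibroblast markers, Dcn stood at 252, 266 and 266 FPKM and Pdgfra at 2.86, 2.49 and 2.94 FPKM, and Dcn made up 98.8% of their summed mean. Col1a1 had 4, 3 and 11 counts, and Acta2, Col1a2, Col3a1, Pdgfrb and Lum had 0 counts. Lum, which encodes another small proteoglycan, lies 46.98 kb from Dcn. At the limit of 3 counts for Lum over the 3 libraries, Dcn was at least 11233-fold higher.

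The share of genes expressed differed with promoter composition. The ratio of observed to expected CpG was computed over the 300 bases of the 14059 promoters, a window that is rich in CpG for most broadly used genes. The promoters were split by this ratio into a low, a middle and a high class of equal size. In the low class 356 of 4686 genes were expressed (7.60%), in the middle class 2235 of 4686 (47.7%) and in the high class 3668 of 4687 (78.3%). The median level of the expressed genes differed less, at 5.95, 8.36 and 11.4 FPKM. For the hepatocyte function lists 178 of 275 genes had 1 listed start. The 49 expressed ones had a median ratio of 0.436 and 18 of them lay in the low class (36.7%). The 129 others had a median of 0.233 with 89 in the low class (69.0%). Over all 14059 promoters the median was 0.582. The ratio was 0.272 for Alb and 0.2503 for Afp, both in the low class, and 0.124 for Afm. The C/EBP core was found in 12 of the 49 (24.5%) and 36 of the 129 promoters (27.9%), against 10.1% of all 14059.

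**Figure D5:**
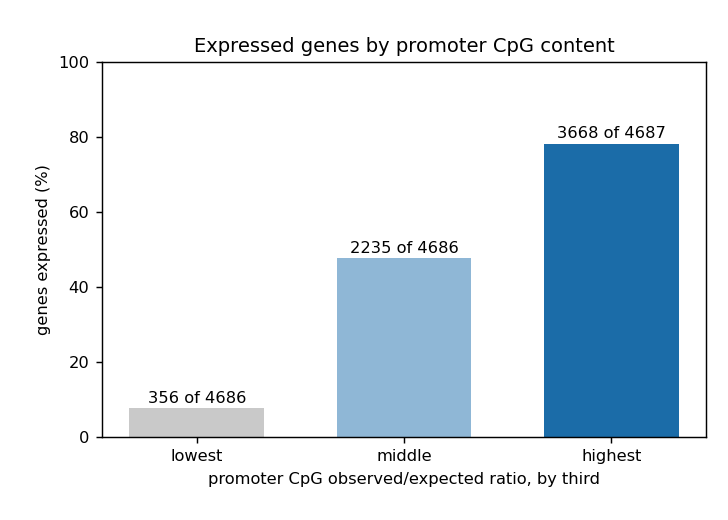
Percentage of protein-coding genes expressed in all 3 control libraries, by class of the promoter CpG observed to expected ratio (lowest, middle and highest, of equal size). Bars start at 0 and carry the number of genes expressed of those in the class; the percentage is 7.60%, 47.7% and 78.3% from the lowest to the highest class.

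The error behind the means was small for most genes. Fitted over 13317 genes by edgeR, the common biological coefficient of variation between the 3 libraries was 6.58%, and the median over 10121 genes with a mean of at least 100 counts was 6.16%. The 5 most variable of these were Gm47283 with 71, 29 and 329 counts, mt-Nd4l with 72, 80 and 531 counts, Gm44126 with 17, 183 and 210 counts, Gm10241 with 238, 1077 and 128 counts and Rps26-ps1 with 636, 70 and 817 counts. The library that stood out differed from gene to gene. Of the 20 most variable genes 10 were annotated as pseudogenes. Pseudogenes made up 5.45% of all expressed genes, and their share among the 10121 ranked genes was not computed. Gapdh, a glycolytic enzyme often used as a reference gene and here named after its values were seen, was the sixth, at 92.4, 69.6 and 14.1 FPKM. Control 3 lay far under the others for Gapdh, while Actb, another common reference, was even at 804, 770.4 and 769 FPKM. Gapdh has many processed copies, so the assignment of its reads is uncertain in the same way as for the ribosomal protein genes.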

How the data were processed

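Total RNA of Hepa1-6 cells was extracted for sequencing, and the 3 control libraries were used. The study's methods name no step that removed rRNA or selected mRNA. The submitters' processing notes name CASAVA 1.8, fastp, HISAT2 2.0.5, featureCounts 1.5.0-p3, DESeq2 1.20.0 and the build mm10; the strand setting is not given in the sources used here. The authors deposited raw counts per gene and FPKM values, which followed from the counts, the deposited gene length and 1 total per library within 2.46e-05%. Gene positions in the tables matched GRCm38 annotation for 2.76% of 52036 nuclear genes, so only RefSeq promoters on GRCm38.p6 are printed with coordinates, and distances between genes are those of the deposited annotation. Some genes of the lists and pairs are counted but not reported here by name, and 17 of the 23 pairs are shown.

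A gene was called expressed at 1 FPKM or more in all 3 libraries. Lists (22, with 483 distinct genes, all found), pairs and regions were described by levels, counts and medians, with no test, since only 1 group enters. The members and lists were chosen with earlier results of these data known. Named genes were the 20 highest, the 5 highest of each noncoding biotype described, the 10 highest transcription factors, the 5 highest and up to 8 low members of each list, all genes of pairs and regions, and the 5 most variable; all others were chosen after their values were seen. Where all libraries had 0 counts, a limit of 3 counts over the 3 libraries was used, which covers counting error only. Dispersion came from edgeR 4.0.16 with TMM scaling, tested on simulated data. Alternatives were other limits, TPM, counts, scalings with DESeq2 1.42.0, and leaving out each library.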

Additional observations from a re-analysis of the deposited data

How the results depend on the processing

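No paired analysis was possible because only the control group enters and no test was made. The number of expressed genes was 7301 at 5 FPKM, against 11261 at 1 FPKM, and stayed within 1.5 times of it under the other limits and without each library. The number of distinct expressed genes on the lists, 199, stayed within 1.5 times under every alternative. For single lists, the count moved by more than 1.5 times in 11 of 22 lists at 5 FPKM, in 1 at 0.5 FPKM, in 4 by TPM and in 5 with 10 counts in place of FPKM; with 10 counts 3 endothelial and 4 blood cell markers passed, and by TPM or with 10 counts 14 complement genes did, against 8. Protein-coding genes held 90.2% of FPKM against 97.1% of counts. The 100 most abundant genes held 16.1% of counts, 22.2% of FPKM without mitochondrial genes and 28.3% among protein-coding genes, against 27.1%. The number of pairs with a lower liver form stayed within 1.5 times; the log2 ratio of Pfkfb1 to Pfkfb3 was 0.07, and it reversed to -0.84 on counts not per length and to -0.14 without control replicate 2, with a range of -0.14 to 0.19 as each library was left out. The common coefficient of variation was 6.58%, and 5.34% to 8.02% when each library was left out in turn, highest without control replicate 3. Apart from limits and units, which change a call by their construction, the cause of these changes was not tested. For a gene at 0 counts, the depth allows up to 3 counts over the 3 libraries, and reads shared with copies or with genes on the other strand limit the levels of such genes.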

Other observations

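The genes below were chosen after their values were seen. Of 16 small proline-rich protein genes 4 were expressed, and Sprr1a (2068 FPKM) was far above Sprr1b (30.3, 29.6 and 29.5 FPKM), Sprr2h (7.33 ± 1.87 FPKM) and Sprr2g (6.51 ± 0.329 FPKM). Of 21 late cornified envelope genes 2 were expressed, and the highest, Lce1g, reached a mean of 5.25 FPKM. Of 53 keratin genes 6 were expressed, and after Krt18 and Krt8 the highest was the intestinal keratin Krt20 at 77.6, 76.1 and 74.8 FPKM, above Krt10 (2.41 ± 0.315 FPKM) and Krt5 (1.40 ± 0.213 FPKM). Cdh17, a cadherin of the intestine and fetal liver, stood at 268, 273 and 259 FPKM, above Cdh2 (14.8 FPKM) in every library, while Cdh3 had 2 counts in all. Of 15 S100A genes 6 were expressed, led by S100a11 (480.2 ± 42.1 FPKM), S100a10 (373 ± 17.98 FPKM) and S100a6 (233 ± 21.5 FPKM). Of 31 claudin genes 4 were expressed, and Cldn4 (36.5 ± 1.36 FPKM) was near Cldn3 (38.4 ± 4.83 FPKM). Of 39 HOX genes only Hoxa10 was expressed, at 6.56, 7.001 and 7.16 FPKM, and 29 had 0 counts. All 22 major urinary protein genes, which are typical of male mouse liver, had 0 counts.

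The X inactivation RNA Xist stood at 69.7, 79.9 and 75.3 FPKM, and none of the 172 protein-coding genes of the Y chromosome had a count. Of the protein-coding genes of the X chromosome 278 of 930 were expressed (29.9%), against 44.8% of all protein-coding genes and 35.1% to 52.8% on the single autosomes. Among genes of cholesterol handling, the efflux pump Abca1 stood at 9.13, 8.04 and 8.84 FPKM, the synthesis genes Sqle and Hmgcs1 at 73.5 and 44.04 FPKM, and their regulator Srebf2 at 51.7 ± 4.75 FPKM. The esterifying enzymes were low, with Soat1 at 0.182, 0.148 and 0.147 FPKM and Soat2 at 1.22, 1.18 and 0.753 FPKM. For insulin signalling, Igf1r had 2 counts in all while the insulin receptor Insr stood at 7.43, 8.18 and 7.90 FPKM and its substrates Irs1 and Irs2 at 7.16 and 8.38 FPKM. Further Wnt targets were expressed beside Axin2, with Tcf7 at 61.7 ± 1.97 FPKM, Nkd1 at 12.1 ± 1.03 FPKM, Znrf3 at 9.43 ± 0.159 FPKM and Rnf43 at 6.75 ± 0.532 FPKM, and Lef1 was not, at 0.4 ± 0.0361 FPKM. The immunoglobulin segment Igkv12-89 stood at 78.2, 91.9 and 75.9 FPKM, and the immunoglobulin and T cell receptor genes as a class had 4 of 702 members expressed.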
